A study of Locusta migratoria with 12 samples.

Results

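miR-10 was followed through both arms of its hairpin, the 5p and the 3p strand, in the fat body of adult female migratory locusts (Locusta migratoria) over the first 6 days of adult life. The members were chosen by name and abundance. Of 35 rows called miR-10 under an arthropod species prefix, 27 carried 5p or no arm in the name and 8 carried 3p, and for each arm the row with the highest total over the 12 libraries was taken. This gave 2 members, dan-miR-10 for the 5p arm (total 21804 counts) and dme-miR-10-3p for the 3p arm (total 4071 counts), of 26711 names in the table. The prefixes are those of the flies Drosophila ananassae and Drosophila melanogaster, and the members are called miR-10-5p and miR-10-3p below.

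Small RNA was sequenced from fat body, an organ with roles like those of liver and adipose tissue, at day 0, day 2, day 4 and day 6 after eclosion (emergence as an adult), with 3 libraries at each age. Every library came from females, and the labels give no genotype, strain or treatment, so age is the only labelled difference between the groups. How many animals went into a library, and whether libraries of 1 age were made from different animals, is not in the labels. A p-value here is therefore set by the spread among libraries, and part of that spread may be technical. The table holds miRNAs alone, so the protein genes that define fat body were not checked here. Names that counted the same reads were joined into 103 groups, and the sum of these groups' counts was lowest in day 0 replicate 1 (384700) and highest in day 2 replicate 1 (2296655).

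A miRNA is cut from a hairpin as a duplex of its 5p and 3p strands, of which usually only 1 is kept in an Argonaute protein, where it pairs with messenger RNAs through its seed. miR-10 lies within the Hox gene complexes of insects and vertebrates, among the genes that set segment identity along the body axis. It is also a known case of arm preference that differs between insects: the 3p strand prevails in Drosophila and the 5p strand in the beetle Tribolium. In female locusts the days after eclosion are those in which the fat body matures under juvenile hormone before it makes yolk protein.

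Rows of the same arm largely repeated the same counts. The 27 5p rows, from 27 species, held 9 distinct profiles, and 24 of them reached over 90% of the total of miR-10-5p. The row named in the locust (lmi-miR-10-5p) differed from it by at most 3 counts in any library. The remaining 5p rows were those of the mosquito Anopheles gambiae (aga-miR-10, 10.1% of the top total), the fly Drosophila virilis (dvi-miR-10-5p, 9.71%) and the mite Tetranychus urticae (tur-miR-10-5p, 4.83%). Of the 8 3p rows, 5 held the same counts as miR-10-3p, so the choice among them changes no value, dvi-miR-10-3p and the locust row lmi-miR-10-3p held 67.4% and 67.2% of its total, and tur-miR-10-3p was at 0. Outside the rule, 75 rows named miR-10 with a paralogue letter or in other animals held counts, and 30 of them reached over 90% of miR-10-5p. A row of the moth Manduca sexta, mse-miR-10a, was identical to miR-10-3p in every library. A further 41 had at most 6 counts in any library.

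Both arms stood highest at day 0, lower at days 2 and 4 and lowest at day 6. miR-10-5p had 588, 5351 and 7419 counts in the day 0 libraries, 1711, 909 and 928 at day 2, 1523, 1080 and 864 at day 4, and 793, 316 and 322 at day 6. Scaled to a common library size, these were 1268, 2358 and 3373 CPM at day 0, 780, 1158 and 857 CPM at day 2, 747, 1033 and 693 CPM at day 4, and 585, 545 and 266 CPM at day 6. Every day 0 library lay above every later library, the libraries of days 2 and 4 overlapped, and every day 6 library lay below all of those.

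The means of miR-10-5p were 2333 ± 1053 CPM at day 0, 931 ± 199.9 CPM at day 2, 824 ± 183 CPM at day 4 and 465 ± 174 CPM at day 6 (SD, n = 3 at each age). Day 0 was the most variable age, with replicate 1 the lowest of its 3 libraries and an SD of 45.1% of the mean. In shares of counts, with no scaling between libraries, miR-10-5p took 0.153%, 0.246% and 0.399% at day 0, 0.0745%, 0.130% and 0.0942% at day 2, 0.0717%, 0.0979% and 0.0675% at day 4, and 0.0465%, 0.0517% and 0.0224% at day 6. The order of the ages was the same on this scale, and day 0 again did not overlap with any later age.

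miR-10-3p followed the same course at a lower level. It had 122, 984 and 1321 counts at day 0, 327, 177 and 205 at day 2, 304, 209 and 176 at day 4, and 135, 42 and 69 at day 6. Its levels were 263, 434 and 601 CPM at day 0, 149, 225 and 189 CPM at day 2, 149, 199.9 and 141 CPM at day 4, and 99.6, 72.5 and 57.0 CPM at day 6. As for the 5p arm, no day 0 library overlapped with a later age, days 2 and 4 overlapped, and day 6 lay below the rest. The means were 432 ± 169 CPM at day 0, 188 ± 38.3 CPM at day 2, 163 ± 31.9 CPM at day 4 and 76.3 ± 21.6 CPM at day 6 (SD, n = 3 at each age). By mean CPM miR-10-5p ranked 32nd and miR-10-3p 44th of the 92 miRNAs tested, and over the 12 libraries their ranks ran from 23 to 39 and from 35 to 61.

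**Figure D1:**
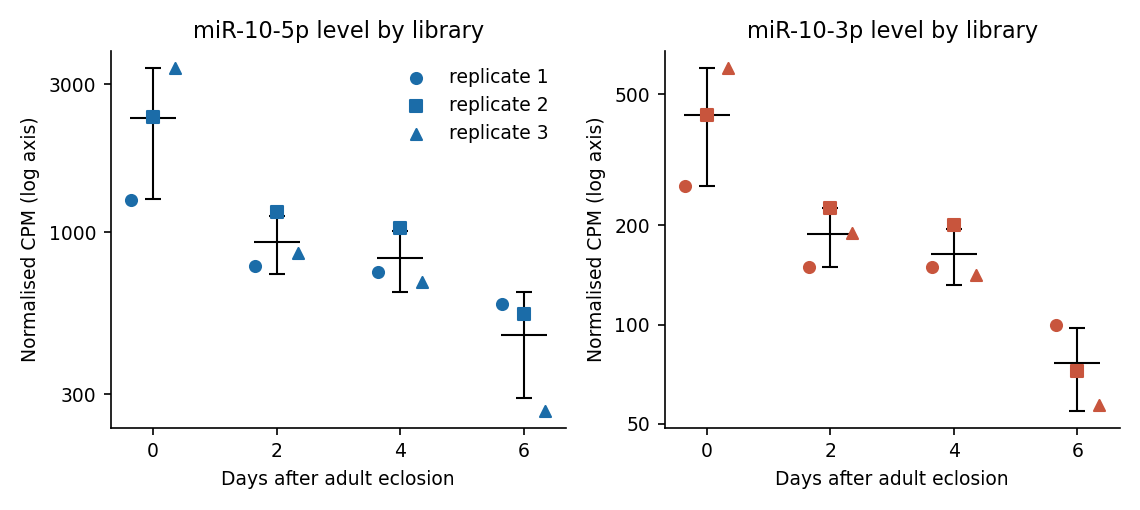
Level of each miR-10 arm in normalised CPM (log axis) against days after eclosion, with a point for each library (marker by replicate) and the mean with its SD in black. The day 0 libraries, at 1268 to 3373 CPM for 5p and 263 to 601 CPM for 3p, lie above all later ones, and the day 6 libraries lie below all others.

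Both arms differed over the 4 ages, with an adjusted p of 0.00719 for miR-10-5p and of 0.00392 for miR-10-3p (edgeR's quasi-likelihood test, Benjamini-Hochberg over the 92 miRNAs). Of all miRNAs tested, 28.3% were called in this test at an adjusted p under 0.05. Since each library is bulk tissue, fewer cells of a type and less miRNA per cell cannot be told apart. Both arms were called whichever of the 12 libraries was left out, with adjusted p up to 0.0289 for 5p and 0.0268 for 3p. When every row of the table was tested as it stood, without joining names, the 5p arm was no longer called (adjusted p = 0.0508).

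At day 6 both arms had fallen against day 0, to under 0.2 of its level. miR-10-5p averaged 465 CPM at day 6 and 2333 CPM at day 0, a log2 change of -2.33 (SE 0.43, adjusted p = 0.00258 with edgeR), or a ratio of 0.199. miR-10-3p averaged 76.3 CPM at day 6 and 432 CPM at day 0, a log2 change of -2.50 (SE 0.41, adjusted p = 0.001), or a ratio of 0.177. All 3 day 6 libraries lay under the lowest day 0 library in both arms. In the same comparison 43.5% of all miRNAs tested were called (27.2% lower and 16.3% higher) and 22.8% were lower with no overlap between the libraries, and counted from the largest fall the 3p arm ranked 10th and the 5p arm 12th of 92.

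These falls kept their call in every setting tried and whichever library was left out. Without day 0 replicate 1, the lowest of its age in both arms, the log2 changes were -2.62 for 5p and -2.75 for 3p, and without day 0 replicate 3, the highest, they were -1.94 and -2.16. Scaling moved all miRNAs together: the median log2 change of the 92 miRNAs was 0.04 with TMM factors and -0.33 with total counts. It was 0.47 for the remaining 91 with total counts lacking miR-8-3p, the most abundant miRNA, whose share was larger at day 6. miR-10-5p changed by -2.37, -2.40 and -2.36 relative to these medians, and miR-10-3p by -2.55, -2.59 and -2.54. Over all miRNAs, 25 were called lower and 15 higher at day 6, against 27 and 7 with total counts and 16 and 20 with total counts lacking miR-8-3p.

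At day 4 both arms had fallen against day 0 as well. miR-10-5p averaged 824 CPM at day 4 and 2333 CPM at day 0 (log2 change -1.50, SE 0.42), and miR-10-3p averaged 163 CPM at day 4 and 432 CPM at day 0 (log2 change -1.41, SE 0.39), each with an adjusted p of 0.0197 in edgeR's test. Of all miRNAs tested, 30.4% were called in this comparison (19.6% lower and 10.9% higher), and 25% were lower with no overlap. Both calls ended without day 0 replicate 3, with log2 changes of -1.13 for 5p and -1.09 for 3p. They also ended when any 1 of the day 4 libraries was left out, with changes of -1.68 to -1.41 for 5p and -1.55 to -1.32 for 3p.

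At day 2 the arms stood on either side of the threshold with nearly the same change. miR-10-5p averaged 931 CPM at day 2 and 2333 CPM at day 0 and was called lower (log2 change -1.33, SE 0.42, adjusted p = 0.0468 with edgeR). miR-10-3p averaged 188 CPM at day 2 and 432 CPM at day 0 and was not called (log2 change -1.21, SE 0.39, adjusted p = 0.0517). In this comparison 17.4% of all miRNAs were called (12% lower and 5.43% higher) and 15.2% were lower with no overlap. The call of the 5p arm held in 2 of the 12 fits that left out a library, those without day 0 replicate 1 or day 6 replicate 3, and ended in the other 10 (log2 change -1.47 to -0.96, adjusted p up to 0.189). The 3p arm was called in the same 2 fits, at -1.48 without day 0 replicate 1 (adjusted p = 0.00732) and at -1.21 without day 6 replicate 3 (adjusted p = 0.0432).

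Among the later ages no change of either arm passed the threshold. Day 4 against day 2 gave log2 changes of -0.18 (SE 0.41) for 5p and -0.20 (SE 0.39) for 3p. Day 6 against day 2 gave -1.001 (SE 0.42, adjusted p = 0.257 with edgeR) and -1.30 (SE 0.40, adjusted p = 0.154), and day 6 against day 4 gave -0.83 (SE 0.41, adjusted p = 0.733) and -1.09 (SE 0.39, adjusted p = 0.563). All 3 day 6 libraries lay below those of day 2 and of day 4 in both arms, as did 19.6% and 12% of all miRNAs. edgeR called 0% of the 92 miRNAs in each of these 3 comparisons, where 5, 14 and 7 had an unadjusted p under 0.05. DESeq2 called 1, 4 and 0 and limma-voom 0 in each. miR-10-3p was called lower at day 6 against day 2 by DESeq2 (-1.18, adjusted p = 0.0116), with total counts (-1.62, adjusted p = 0.0417) and without day 0 replicate 1 (-1.27, adjusted p = 0.0264). In the order of the ages, then, day 0 differed from days 4 and 6 in both arms, and no difference among days 2, 4 and 6 passed the test in either arm.

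**Figure D2:**
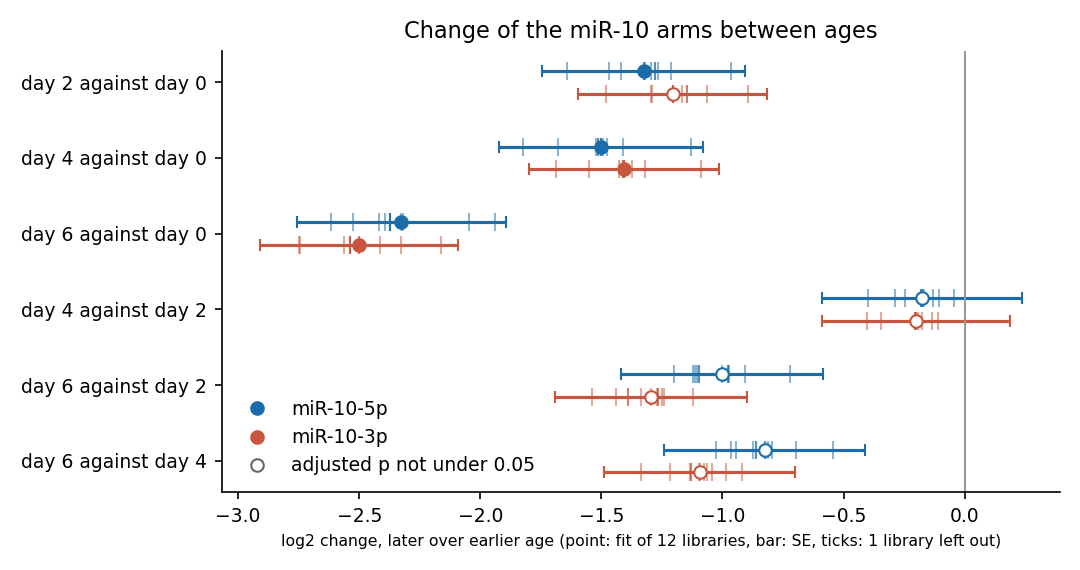
log2 change of each arm for the 6 comparisons of ages (later over earlier), with its SE as a bar, filled points where the adjusted p is under 0.05, and ticks for the 12 fits that leave out a library. The changes at day 6 against day 0, -2.33 for 5p and -2.50 for 3p, are the largest, and the points of both arms lie close together in each comparison.

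No change in the proportion of the arms between ages passed a test on all 12 libraries. The 5p arm held the larger count in every library, with 4.53 to 7.52 counts of 5p for each count of 3p. The 3p arm made up 17.2%, 15.5% and 15.1% of the counts of both arms at day 0, 16.0%, 16.3% and 18.1% at day 2, 16.6%, 16.2% and 16.9% at day 4, and 14.5%, 11.7% and 17.6% at day 6. The ages overlapped throughout, and the spread at day 6, where the counts were lowest, took in the whole range of days 0, 2 and 4 apart from day 2 replicate 3. The mean shares were 15.9 ± 1.09% at day 0, 16.8 ± 1.12% at day 2, 16.6 ± 0.357% at day 4 and 14.6 ± 2.96% at day 6 (SD, n = 3 at each age).

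Over all libraries together the share was 15.7%, largely set by day 0 replicates 2 and 3, which held the most counts of both arms (6335 and 8740). The unweighted mean over libraries was 16.0%. The exact binomial 95% interval of 10 of the 12 libraries held the pooled value of 15.7%. The other 2 were day 2 replicate 3 (interval 15.9 to 20.5%) and day 6 replicate 2 (8.59 to 15.5%, from 42 counts of 3p). Such intervals cover counting error alone, since reads without molecular identifiers are not independent molecules.

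**Figure D3:**
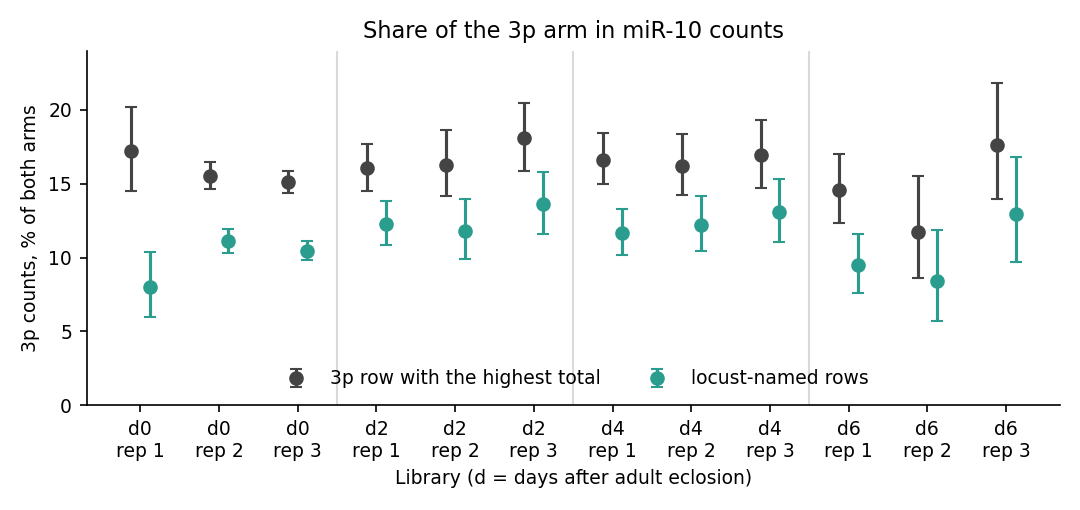
Share of the 3p arm in the counts of both miR-10 arms in each library, in percent, with exact binomial 95% intervals, for the rows with the highest totals (grey) and for the rows named in the locust (green). The grey points lie between 11.7% and 18.1% with overlapping ages, and the green point of day 0 replicate 1, at 7.99%, is the lowest of its series.

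In an exact permutation test over the 4 ages the ratio of 3p to 5p did not pass the threshold (p = 0.432, adjusted p = 0.576 over 9 miRNAs with both arms tested). In that test 22.2% of the 9 miRNAs were called. Without day 6 replicate 3, the highest share of its age, the ratio of miR-10 was called (adjusted p = 0.0368), with the remaining day 6 libraries at 14.5% and 11.7%. Between single ages, limma on the log2 ratios of the 9 miRNAs gave miR-10 a change of 0.09 (SE 0.24) at day 2 against day 0, of 0.07 (SE 0.24) at day 4 against day 0 and of -0.15 (SE 0.24, adjusted p = 0.599) at day 6 against day 0. The 95% interval of the last ran from 0.621 to 1.30 times the day 0 ratio, so a shift of the arms within these bounds is compatible with these libraries. Of the 9 miRNAs, 0% were called at days 2 and 4 and 11.1% at day 6 (1 miRNA), with 2 at an unadjusted p under 0.05 at each age.

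Over the 12 libraries the log2 ratio of miR-10 had an SD of 0.19. The other 8 miRNAs with both arms tested (miR-8, miR-9, miR-71, miR-190, miR-252, miR-276, miR-281 and miR-307) had SDs of 0.43 to 1.13, and the range of their 4 age means was 0.82 to 1.81, against 0.25 for miR-10. With the locust-named rows, the SD of miR-10 was 0.28 and the range of its age means 0.41. Some arms of the other 8 were scarce in day 0 replicate 1, such as miR-190-3p at 2.16 CPM and miR-307-5p at 17.3 CPM. Others were not, such as miR-8-5p at 10443 CPM, and miR-10-3p stood there at 263 CPM. The SDs and ranges are descriptions, and whether the spread of miR-10 differs from that of the other 8 was not tested. The part of counting error in these SDs was not tested either. The levels of the miR-10 arms also moved together within ages: as deviations from the mean of their age, on the log2 scale, they had a Pearson correlation of 0.94 over the 12 libraries, which share library size and scaling factor.

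Which row stands for the 3p arm matters most in day 0 replicate 1. There the locust-named 3p row held 51 counts against 122 in miR-10-3p, or 41.8% (exact binomial 95% interval 32.9 to 51.1%). In the other 11 libraries this share was 61.5 to 73.9%, with no interval reaching as low as 51.1%. For the 5p arm the library stood at the other end: aga-miR-10 held 13.6% of the counts of miR-10-5p there (10.9 to 16.6%), against 7.69 to 10.9% in the other 11. Unlike for the 3p row, this interval overlapped with those of most other libraries, whose upper limits reached 13.7% (day 6 replicate 3).

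With the locust-named rows the 3p share was 7.99% in day 0 replicate 1, against 8.41 to 13.6% in the others, and the change of the ratio at day 6 against day 0 turned to 0.07 (SE 0.28, adjusted p = 0.812), still not called. At days 2 and 4 against day 0 the change of the ratio was larger with these rows, 0.41 (SE 0.28, adjusted p = 0.192) and 0.37 (SE 0.28, adjusted p = 0.31), against 0.09 and 0.07 with the highest rows, and was not called by limma with either. Day 0 replicate 1 also stood apart outside miR-10: miRNAs with counts under lepidopteran names alone summed to 2589 there, while no other library exceeded 11, and miR-8-3p made up 8.32% of its counts, against 27.2 to 59.9% elsewhere. The part of such reads in the values of that library was not tested.

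**Figure D4:**
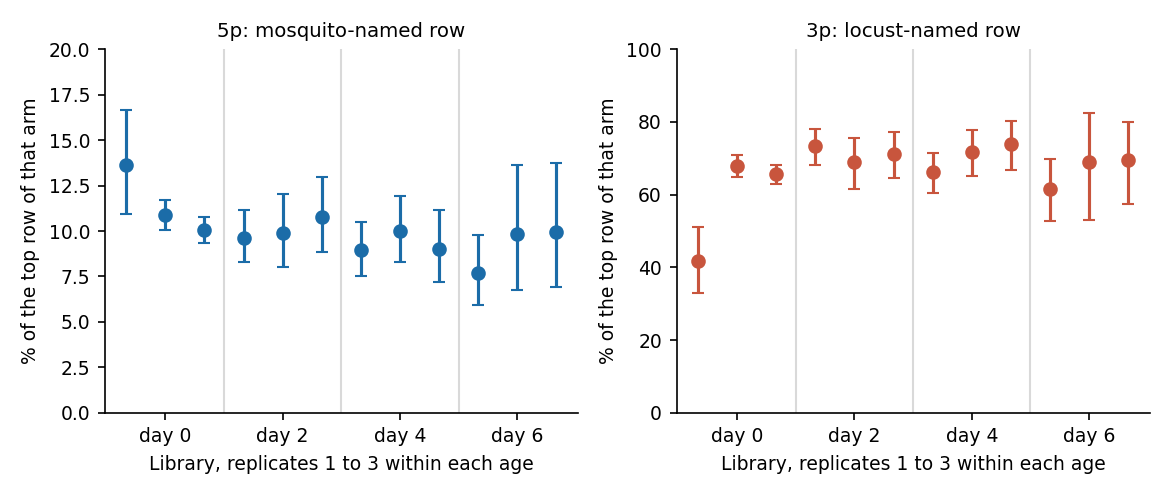
Counts of the mosquito-named 5p row (left) and of the locust-named 3p row (right) as a percentage of the top row of the same arm in each library, replicates 1 to 3 from left to right within each age, with exact binomial 95% intervals. Day 0 replicate 1 is the highest on the left, at 13.6%, and the lowest on the right, at 41.8%.

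The other miRNAs of the Hox complexes were scarce in these libraries. miR-iab-4-5p, from the complex that patterns the abdomen, was the only one besides miR-10 with enough counts to be tested. It had 10, 74 and 40 counts at day 0, 45, 12 and 13 at day 2, 37, 5 and 55 at day 4, and 20, 68 and 2 at day 6. The ages overlapped widely, and its log2 change at day 6 against day 0 was 0.82 (SE 1.06, adjusted p = 0.523 with edgeR), with values of -1.48 to 1.41 when single libraries were left out. miR-993, miR-iab-8, miR-196 and miR-615 reached at most 12, 1, 3 and 1 counts in any library. Of the 3 tested rows of this list, 2 were called lower at day 4 and at day 6, both of them miR-10, and 1 at day 2, when 19.6%, 27.2% and 12% of all miRNAs were. With 3 rows, the median of the list at day 6 is the value of miR-10-5p itself, so the list adds nothing to it.

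miR-10 shares most of its 5p strand with miR-100 and miR-99, whose sequences are shifted and changed by few bases, so reads of these miRNAs may be split between names. Of the 4 tested rows of this family, the arms of miR-10 included, 2 were called lower at day 2 and 4 each at days 4 and 6, when 12%, 19.6% and 27.2% of all miRNAs were. The median log2 change at day 6 was -2.22, between the values of miR-10-5p and miR-100-5p, against 0.04 for all miRNAs. With the arms of miR-10 as 2 of the 4 rows, these counts and this median are not separate from miR-10. miR-100-5p, clustered with let-7 in flies, averaged 13170 ± 2693 CPM at day 6 and 57070 ± 46520 CPM at day 0 (SD, n = 3 each), a log2 change of -2.12 (SE 0.48, adjusted p = 0.00621), and of -1.18 without day 0 replicate 1. miR-99b-5p, found under no arthropod name, averaged 132 ± 15.5 CPM at day 6 and 323 ± 161 CPM at day 0 (log2 change -1.29, SE 0.43, adjusted p = 0.0337), a call that held in 4 of the 12 fits leaving out a library and ended without day 0 replicate 1 (-0.83, adjusted p = 0.0971). Its call at day 4 (-1.28, adjusted p = 0.0393) held in 3 of the 12 fits. Where the miR-10 arms changed more without that library, both of these changed less. Between day 6 and day 2 these relatives differed by 0.18 (SE 0.46) and -0.07 (SE 0.43), beside -1.001 and -1.30 for the miR-10 arms, none of them called. miR-51 and miR-57, the nematode members, were at 0, and miR-993 is counted above.

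The miRNAs with the profile most like miR-10 over the 12 libraries were the same 5 for both arms, among 92 with at least 10 CPM on average, the arms themselves included. By Pearson's r of log2 CPM with miR-10-5p they were miR-263b-5p (0.88), a minor row of miR-263b named in a mite (0.87), miR-31a-5p (0.86), miR-263a-5p (0.86) and miR-276b-3p (0.86). With miR-10-3p they were miR-263b-5p (0.93), miR-263a-5p (0.92), miR-31a-5p (0.90), the mite-named row (0.87) and miR-276b-3p (0.85), while the arms of miR-10 stood at 0.98 with each other. The 12 points share their ages and scaling factors, so these values are descriptions. Without day 0 replicate 1 the 5 closest to each arm were miR-31a-5p, miR-263b-5p, miR-263a-5p, miR-276-3p and miR-9a-5p, with r from 0.88 to 0.95.

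miR-263a-5p and miR-263b-5p, which protect sensory organ cells in flies, and miR-31a-5p fell against day 0 at days 2, 4 and 6. At day 6 their log2 changes were -2.82, -2.65 and -2.62 (adjusted p = 0.000229, 0.000303 and 6e-05 with edgeR), and each of these calls held whichever library was left out, while those at day 2 held in 9, 6 and 10 of the 12 fits. As deviations from the age means, their correlations with miR-10-5p were 0.06, 0.23 and -0.01 and those with miR-10-3p were 0.33, 0.41 and 0.06. The same measure was 0.58 and 0.61 for the mite-named row, 0.59 and 0.62 for miR-276b-3p, 0.74 and 0.80 for miR-276-3p and 0.79 and 0.83 for miR-9a-5p, in each case with 5p and then 3p. miR-276b-3p, at 12.7 CPM on average, was called lower at day 6 (-2.18, adjusted p = 0.0109), except without day 6 replicate 2. At the other end, miR-995-3p had the lowest r with both arms (-0.80 with 5p and -0.78 with 3p) and rose at day 6 by a log2 change of 2.54.

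**Figure D5:**
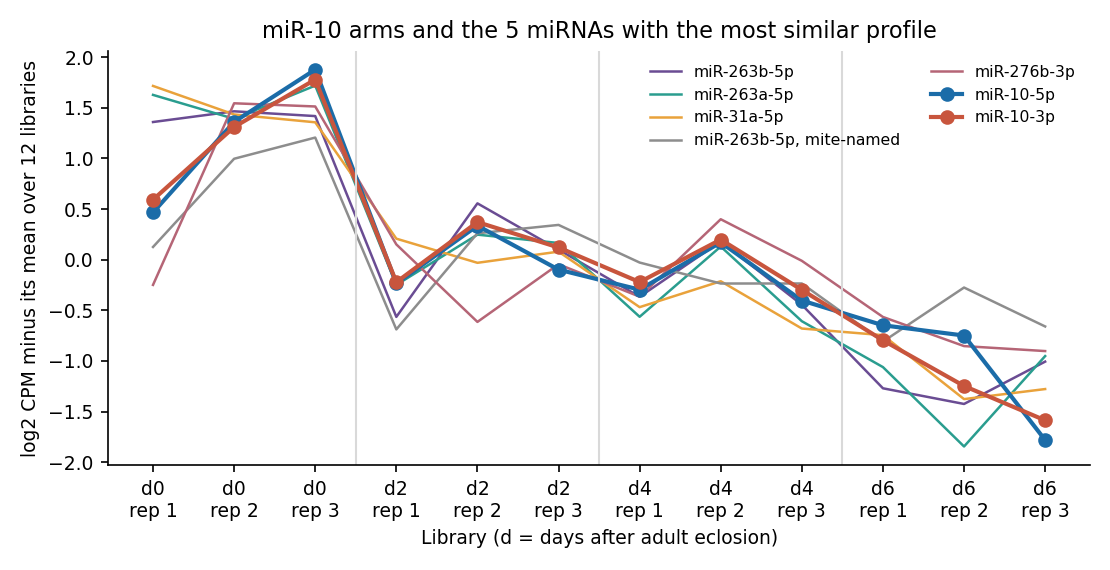
log2 CPM of the miR-10 arms (points) and of the 5 miRNAs with the highest Pearson correlation with miR-10-3p, each minus its own mean over the 12 libraries, by library. In day 0 replicate 1 both arms lie below miR-31a-5p, miR-263a-5p and miR-263b-5p, and in day 6 replicate 3 both arms lie below all 5.

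Markers of tissues that a fat body sample could carry were read beside these values. Of the muscle miRNAs miR-1, miR-133 and miR-206, all 3 had counts, the last at most 8 in a library. Their level, summed over every tested arm and form (or the highest row of a miRNA too scarce to be tested), ran from 362 to 3441 CPM at day 0, 533 to 1306 CPM at day 2, 92.8 to 303 CPM at day 4 and 151 to 837 CPM at day 6. By the mean of each age miR-1-3p was the largest of them. It fell by 4.06 on the log2 scale at day 4 against day 0 (SE 0.97, adjusted p = 0.0103 with edgeR). That call held in all 12 fits leaving out a library. At day 6 against day 0 it fell by 2.64 (SE 0.91, adjusted p = 0.0343), a call that held in 6 of the 12 fits. At day 6 the scarcer row miR-1a-3p rose by 4.14 (SE 0.94, adjusted p = 0.00621). That row was found under no arthropod name and had only 0, 6 and 8 counts in the day 0 libraries. The other 2 of the 4 tested muscle rows were not called at day 6 against day 0. They were miR-133-3p (0.85, adjusted p = 0.453 with edgeR) and miR-1b (-2.08, adjusted p = 0.0984). The muscle sum was lowest at day 4 and miR-10 at day 6. Within day 0 the sum was highest in replicate 2 and miR-10 in replicate 3, while both were lowest in replicate 1. Day 0 replicates 2 and 3 held the 2 highest values of all 12 libraries, for the sum and for both miR-10 arms. The nervous system list (miR-7, miR-124, miR-137 and miR-210, all 4 with counts, the last 3 at most 28 in a library) summed to 527 to 1072 CPM at day 0, 613 to 907 CPM at day 2, 643 to 887 CPM at day 4 and 564 to 1109 CPM at day 6. Of the gut list (miR-281, miR-192, miR-194 and miR-215) 3 of 4 had counts, but miR-192 and miR-194 reached at most 1 in a library, and miR-215 was at 0. The sum, in effect that of miR-281, was 105 to 1575 CPM at day 0, 191 to 1125 CPM at day 2, 82.2 to 273 CPM at day 4 and 70.8 to 685 CPM at day 6. The part of muscle or gut RNA in the fall of miR-10 was not tested. miR-8, miR-275, miR-277 and miR-305, abundant in insect fat body but not defining of it, summed to 191100 to 390300 CPM at day 0, 436000 to 561300 CPM at day 2, 605300 to 626500 CPM at day 4 and 689700 to 810400 CPM at day 6. By the mean of each age most of this sum was miR-8-3p (214700 CPM at day 0, 693300 CPM at day 6). Of the 6 tested rows, 2 were called higher and 1 lower at day 6 against day 0, all of them miR-8. Of all miRNAs 16.3% and 27.2% were. miR-275-3p, miR-277-3p and miR-305-5p changed by -1.025, 0.72 and -0.0054, none of them called.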

How the data were processed

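The authors deposited raw counts per mature miRNA name, 26711 names under 115 species prefixes, for 12 libraries; the unit was read from the values. TRIzol extraction and standard Illumina library protocols are named, per the labels' protocols. No source used here gives the aligner, the mismatches allowed or the miRNA release. Groups and replicate numbers come from the titles, and columns were matched through the descriptions (0 columns of other samples).

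Names repeat reads, so the 1513 rows with at least 120 counts were joined. In a first step (155 profiles), 2 rows sharing a miRNA number were joined where all 12 counts differed by at most 25% plus 5, and 2 rows of unlike numbers where they differed by at most 5% plus 3. A profile at a constant share of a larger one of the same number, arm and letter (within a factor of 1.5 or 2.5 counting SDs, 1 library allowed outside; the letter a read as none) was joined next, giving 103 groups, each counted by its most abundant row.

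Counts were tested with edgeR 4.0.16 (R 4.3.3): TMM factors, filterByExpr with a minimum count of 10 (92 groups), glmQLFit and glmQLFTest with age as a factor on all 12 libraries, and calls at a Benjamini-Hochberg adjusted p under 0.05. SE is the log2 change divided by the square root of F, and CPM are normalised. Arm ratios, log2 of 3p over 5p with 0.5 added to each count, were tested by exact permutation of libraries over ages and, between ages, with limma 3.58.1, since an exact test of 3 against 3 cannot go below 0.1. Likeness used log2 CPM (prior count 2), naming the 5 highest r for each arm. Alternatives were RLE factors, total counts with and without miR-8-3p, no filter, DESeq2 1.42.0, limma-voom, a replicate block, all rows, arthropod names alone, other rows or their sum for an arm, a ratio pseudocount of 5, the libraries of 2 ages and each library left out; locust-named rows were added after seeing the data. The fits were tested on simulated data. Python 3.11.15, pandas 2.3.3, NumPy 2.4.6, SciPy 1.17.1 and matplotlib 3.10.9 were used. The members, lists and tests were chosen with earlier results of these data known.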

Additional observations from a re-analysis of the deposited data

How the results depend on the processing

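Values are log2 changes or named as p. The fall of both arms at day 6 against day 0 was called in all 13 alternatives and all 12 fits leaving out a library, which gave -2.62 to -1.94 for 5p and -2.75 to -2.16 for 3p. At day 2 against day 0 the 5p call ended with total counts lacking miR-8-3p (-1.03), no filter (-1.37), the replicate block (-1.34), all rows (-1.15), arthropod names alone (-1.26) and the libraries of these ages alone (-1.31), while 3p was called with RLE factors (-1.25), total counts (-1.30) and DESeq2 (-1.27). At day 4 against day 0 both calls ended, for 5p and 3p, with total counts lacking miR-8-3p (-1.12 and -1.02), all rows (-1.21 and -1.10) and the libraries of these ages alone (-1.45 and -1.35), and the 3p call also with the second-highest row (-1.21) and the locust-named row (-1.21). Leaving out single libraries gave -1.64 to -0.96 (5p) and -1.48 to -0.90 (3p) at day 2, and -1.82 to -1.13 and -1.69 to -1.09 at day 4. For 3p, day 6 against day 2 was called with total counts (-1.62) and DESeq2 (-1.18) and ran from -1.54 to -1.12 with single libraries left out. Over the 4 ages, 5p had an adjusted p of 0.0508 with all rows. The arm ratio at day 6 against day 0 turned to 0.07 with the second-highest rows (0.0655) and the locust-named rows (0.0677), and ran from -0.32 to 0.0166 with single libraries left out. With the second-highest and summed rows it was 0.41 and 0.26 at day 2 and 0.38 and 0.23 at day 4 against day 0, none called. With single libraries left out, at day 4 against day 2 it ran from -0.0607 to 0.0442, and its adjusted p over the ages from 0.0368 to 0.791. The causes were not tested.

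Counts of called miRNAs at days 2, 4 and 6 against day 0 were 16, 28 and 40 and ran over 0 to 28, 12 to 37 and 12 to 44 of the joined groups; the lowest came with the libraries of 2 ages alone (0, 12 and 12), and all rows gave 232, 346 and 426 of 1641. With total counts lacking miR-8-3p, 7 were lower and 6 higher at day 2 and 10 and 12 at day 4, against 11 and 5, and 18 and 10, with TMM factors. Single libraries moved these counts by over 1.5 times: at day 2 without day 0 replicate 2 (28), day 2 replicates 1, 2 and 3 (3, 0 and 0) or day 4 replicates 2 and 3 (10 each), at day 4 without day 4 replicates 1, 2 and 3 (13, 18 and 14), and at day 6 without day 0 replicate 3 (26) or day 6 replicates 2 and 3 (21 and 25). Over the 4 ages 26 were called, against 17 without day 2 replicate 1, 14 without day 2 replicate 3 or any 1 day 4 library and 15 with the replicate block (37 at most), and at day 6 against day 2 0 (up to 11, without day 0 replicate 1). Same-numbered libraries had correlations of -0.689 to 0.333, above 0.1 for every number in 1 of 6 pairs of ages (day 6 and day 2), and 5 of 18 correlated best with their own number, so the numbers were not taken to pair libraries. These are the numbers of the titles: in the descriptions, replicate 1 carries the number 1 at day 0 and 2 at the later ages, while replicates 2 and 3 carry 3 and 4 at every age. With the replicate block 10, 24 and 27 miRNAs were called, and the day 6 changes were -2.32 (5p) and -2.46 (3p), both called. The arm ratio rests on 42 to 135 counts of 3p at day 6 and on 122 in day 0 replicate 1.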
